A study of Drosophila melanogaster with 36 samples.

Results

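The 10 enzymes listed here catalyse the steps of glycolysis and gluconeogenesis in Drosophila melanogaster, and 9 of them were measured among the 11981 genes of the arrays. They were listed by name, and each was represented by the array probe set that the platform annotation assigns to that gene alone, taking the brightest over all 36 arrays where there was more than 1. Pyk, pyruvate kinase, was not listed as a single gene in that annotation and was not analysed here. The cells were Kc167, an embryonic fly line, given fresh medium that either contained methyl methanesulfonate (MMS, a methylating agent that damages DNA and other molecules) at 40 µg/mL or contained none (control). RNA was collected from MMS cultures at 1, 8, 24 and 72 h and from control cultures at 0, 1, 8, 24 and 72 h, with 4 replicate arrays in each of the 9 groups. The paper states that experiments were done in quadruplicate, and neither it nor the labels say how separately the replicates were grown. No gene was altered in any group. The study measured expression so as to combine it with a screen for genes that fly cells need to survive MMS.

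Glycolysis turns glucose into pyruvate in a chain of cytosolic enzymes, and most of its steps run in either direction. Gluconeogenesis shares those reversible steps and uses enzymes of its own where glycolysis cannot be reversed, among them phosphoenolpyruvate carboxykinase (Pepck1), which makes phosphoenolpyruvate from oxaloacetate, and fructose-1,6-bisphosphatase (fbp), which undoes the reaction of phosphofructokinase (Pfk). Glucose enters the chain through hexokinase (Hex-A), and in insects the sugar of the blood is mostly trehalose, which trehalase splits into glucose.

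Levels are log2 values on a scale made equal between arrays, so every change is relative to the other genes, and in such bulk cultures fewer cells of a kind and less RNA per cell cannot be told apart. Levels of different genes come from different probes and are not compared with each other. Arrays of the same group correlated at 0.982 to 0.998. Of 13 blood-cell (hemocyte) markers 1 averaged under 5 in control cultures at 0 h, as did all 4 muscle markers and 3 of 4 fat body markers. So did 3 of 5 neuronal and 2 of 3 germline markers, and the brightest of these 2 lists averaged 5.75 and 6.96. The 8 arrays of 8 h stood apart from the other 28 in RNA quality: the mean excess of 3' over 5' control probe sets was 1.42 to 1.67 there and 0.50 to 0.72 elsewhere, and the 5' probe set of the small ribosomal subunit RNA read 10.56 to 11.33 there and 3.44 to 6.65 elsewhere. Both MMS and control cultures of 8 h carried this, and its part in any result was not tested.

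At 1 h no enzyme was called between MMS and control cultures. The call used limma's moderated test with Benjamini-Hochberg adjustment over all 11981 genes at an adjusted p under 0.05, and the share of all genes it called was 0% higher and 0% lower at this time, with 684 genes at an unadjusted p under 0.05 and 0 of the 9 enzymes among those. The smallest adjusted p was 0.336 for any gene and 0.836 for any enzyme. The 9 changes had a median of -0.05 on the log2 scale, against -0.01 over all genes.

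**Figure D1:**
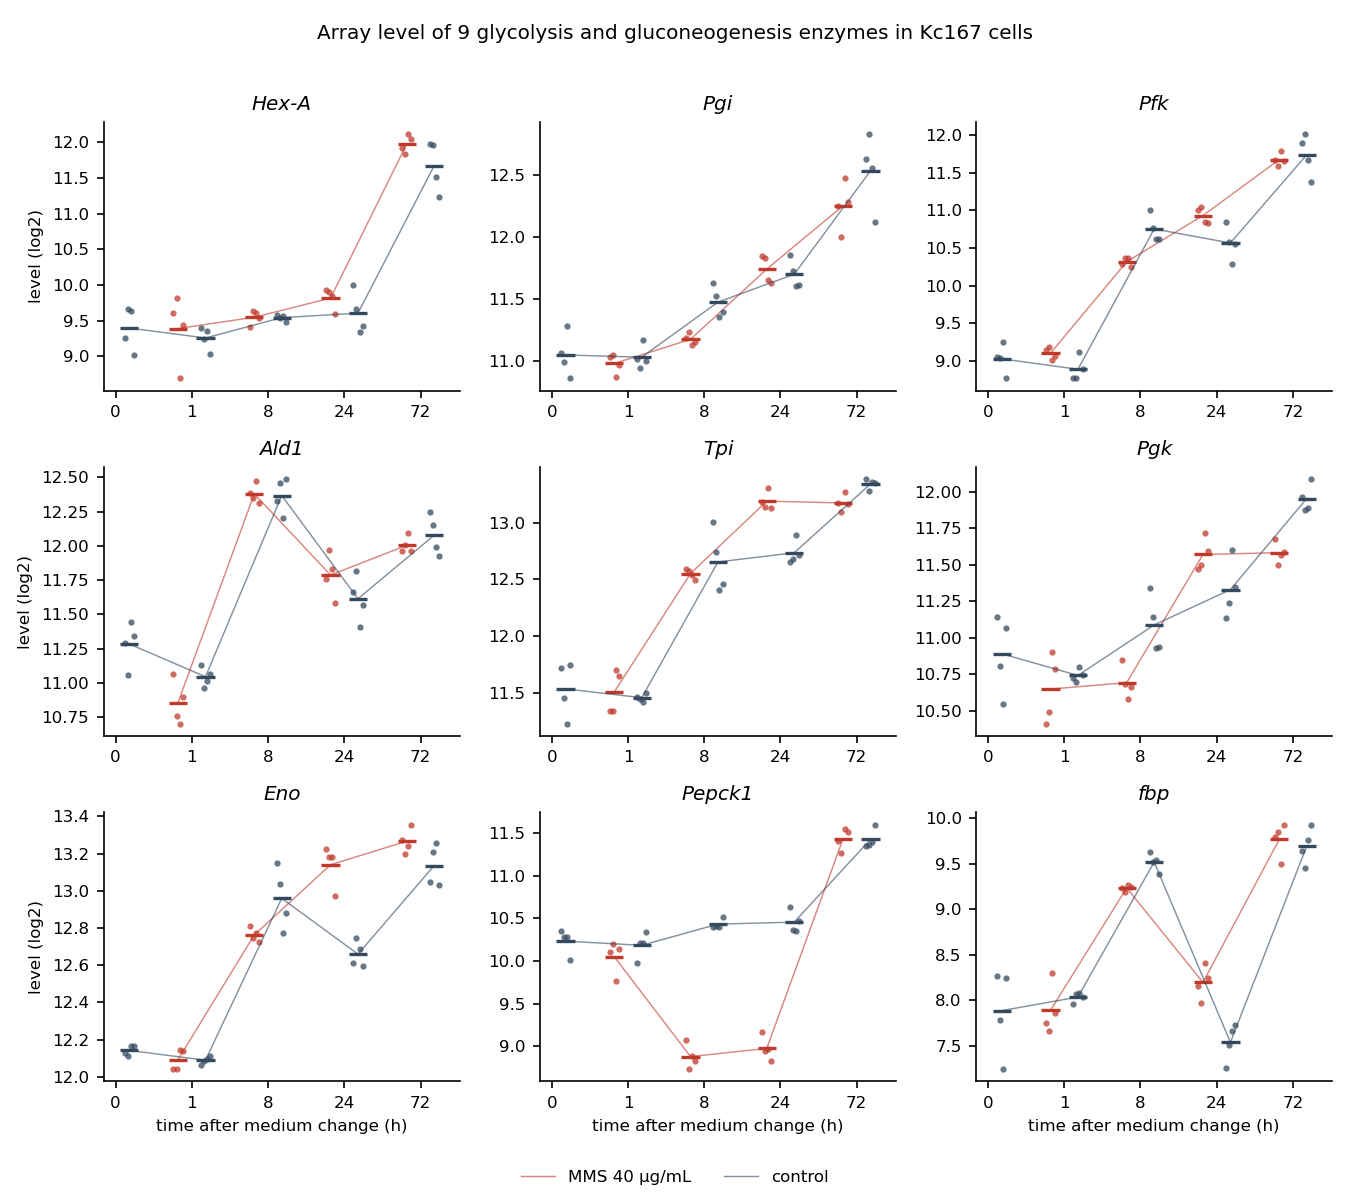
Level of each enzyme (log2, vertical axis) against time after the medium change in hours (0, 1, 8, 24 and 72, evenly spaced). Points are single arrays, bars are means of 4 arrays, red is MMS at 40 µg/mL and grey is control. Pepck1 is the enzyme whose MMS arrays at 8 and 24 h lie below those of all the other groups, and at 72 h its MMS and control arrays overlap.

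Pepck1 had the largest change of the 9 enzymes with MMS, and it was lower at 8 and 24 h and not called at 72 h. At 8 h it read 9.07, 8.74, 8.88 and 8.83 on the 4 MMS arrays, against 10.40, 10.41, 10.40 and 10.52 on the control arrays. At 24 h it read 9.16, 8.94, 8.97 and 8.82 with MMS, against 10.63, 10.36, 10.35 and 10.47 in control. The groups did not overlap at either time, and the gap between them was several times the spread within either. The share of all genes whose MMS and control arrays did not overlap was not counted at any time. Pepck1 was 2.93-fold lower in MMS cultures than in control at 8 h (log2 change -1.55 ± 0.10, SE, n = 4 each, adjusted p = 2.31e-13, limma) and 2.79-fold lower at 24 h (-1.48 ± 0.10, adjusted p = 8.97e-14, limma). Of all genes, 0.309% were called at least 2-fold lower at 8 h and 1.65% at 24 h, and Pepck1 was the only one of the 9 enzymes among them at both times.

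At 72 h Pepck1 read 11.40, 11.27, 11.54 and 11.51 in MMS cultures, against 11.34, 11.36, 11.40 and 11.60 in control cultures. Both groups were above every array of 0, 1, 8 and 24 h and they overlapped each other. The difference was 0.01 ± 0.10 (SE, n = 4 each, adjusted p = 0.967, limma) with a 95% interval of -0.20 to 0.21, so a change of the size seen at 24 h lies outside the interval. The change of the MMS effect itself between 24 and 72 h was 1.49 ± 0.14 (adjusted p = 1.18e-09, limma interaction), and between 8 and 72 h it was 1.56 ± 0.14 (adjusted p = 2.88e-10). Between 8 and 24 h the effect moved by 0.07 ± 0.14 (adjusted p = 0.846). In order of its means, Pepck1 was lowest in MMS cultures at 8 h and then 24 h, which overlapped, followed after a gap by the 1 h and 0 h groups at 10.05 to 10.23, whose neighbours overlapped. Control at 8 and 24 h came next, overlapping each other and separate from 0 h, and both groups of 72 h stood at the top.

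At 8 h 4 of the 9 enzymes were lower in MMS than in control cultures and 0 were higher, while 11.5% of all genes were called lower and 8.85% higher. Besides Pepck1 these were Pfk, which commits fructose phosphate to glycolysis, Pgk (phosphoglycerate kinase, an ATP-yielding step) and Eno (enolase, which makes phosphoenolpyruvate). The median change of the 9 was -0.28, against -0.02 over all genes. Apart from Pepck1 the decreases were small. Hex-A (0.01 ± 0.18), Ald1 (0.01 ± 0.10) and Tpi (-0.10 ± 0.11) were not called and lay near 0.

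Pfk read 10.29, 10.36, 10.37 and 10.25 in MMS cultures at 8 h, against 11.00, 10.76, 10.62 and 10.62 in control. It fell by 0.43 ± 0.12 on the log2 scale (SE, n = 4 each, adjusted p = 0.00691, limma). Pgk read 10.85, 10.68, 10.58 and 10.66 with MMS, against 11.34, 11.14, 10.93 and 10.94 in control, a change of -0.40 ± 0.12 (adjusted p = 0.0126). The arrays of both genes were separate, and replicate 1 was the highest control array for each. Eno changed by -0.20 ± 0.07 (adjusted p = 0.0485), close to the threshold, and its arrays overlapped. That call was lost without control replicate 2 or any of MMS replicates 2, 3 and 4. Pgi, which interconverts glucose and fructose phosphates, changed by -0.30 ± 0.11 (adjusted p = 0.0505) and fbp by -0.28 ± 0.16 (adjusted p = 0.22), both with separate arrays and neither called. Without control replicate 1 only 1 enzyme, Pepck1, was still called lower at 8 h: Pfk then had -0.35 (adjusted p = 0.0524), Pgk -0.31 (adjusted p = 0.0854) and Eno -0.13 (adjusted p = 0.249). The 3' over 5' excess averaged 1.63 in MMS and 1.55 in control cultures of this time (two-sided exact permutation test, p = 0.143, adjusted over the 4 times 0.286). Of 13 hemocyte markers 1 was called higher and 1 lower at 8 h, with a summed linear signal of 22181 to 22669 in MMS and 24468 to 26080 in control cultures. Such sums weigh the brightest markers of a list most. Of 5 neuronal markers 2 were higher and 0 lower, with a summed linear signal of 356 to 453 in MMS and 264 to 323 in control cultures. Of these 5, 2 averaged under 5 in every group. The part of either list in the enzymes' changes was not tested.

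At 24 h the picture was different: 4 of the 9 enzymes were higher in MMS than in control cultures and 1, Pepck1, was lower, while 10.2% of all genes were called higher and 10.0% lower. The 4 were Eno, Tpi (triose phosphate isomerase, which links the products of aldolase), fbp and Pfk, at 1.29- to 1.58-fold. All enzymes but Pepck1 had a positive change, with a median over the 9 of 0.24, against -0.02 over all genes. With fbp and Pfk, enzymes of opposite direction at the same step both rose.

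Eno read 13.22, 13.18, 13.18 and 12.97 in MMS cultures at 24 h, against 12.61, 12.74, 12.69 and 12.60 in control. It rose by 0.48 ± 0.07 (SE, n = 4 each, adjusted p = 2.64e-06, limma). Tpi read 13.19, 13.14, 13.30 and 13.13 with MMS, against 12.66, 12.68, 12.89 and 12.71 in control, a change of 0.46 ± 0.11 (adjusted p = 0.00137). For these 2 every MMS array lay above every control array. The same held for fbp, which read 8.15, 7.97, 8.41 and 8.24 with MMS, against 7.25, 7.51, 7.67 and 7.73 in control, a change of 0.66 ± 0.16 (adjusted p = 0.00154). For Pfk 1 control array reached the MMS range, with 11.01, 11.04, 10.84 and 10.83 in MMS cultures, against 10.84, 10.58, 10.29 and 10.56 in control. Its change was 0.36 ± 0.12 (adjusted p = 0.0235), and it was not called without control replicate 3 (0.27, adjusted p = 0.134), MMS replicate 1 (0.34, adjusted p = 0.0655) or MMS replicate 2 (0.33, adjusted p = 0.0733).

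The other 4 enzymes were not called at 24 h. Pgk had a change of 0.24 ± 0.12 (adjusted p = 0.162), Hex-A 0.21 ± 0.18 (adjusted p = 0.496), Ald1 (aldolase, which splits fructose bisphosphate) 0.17 ± 0.10 (adjusted p = 0.251) and Pgi 0.04 ± 0.11 (adjusted p = 0.867). Same-numbered arrays of the MMS and control groups deviated together at this time, and a fit of these 8 arrays with the replicate number as a block called 1904 genes higher and 2071 lower, in place of 1221 and 1200, with 4 enzymes higher and 1 lower as before. Hemocyte markers also moved at 24 h: 1 of 13 was called higher and 7 lower, their summed linear signal was 21962 to 24541 in MMS cultures and 30047 to 35083 in control cultures, and 1 of the 13 averaged under 5 in each group. Neuronal markers, of which 2 of 5 were higher and 0 lower, summed to 191 to 209 in MMS cultures and 146 to 159 in control cultures. The part of these markers in the enzymes' changes was not tested.

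**Figure D2:**
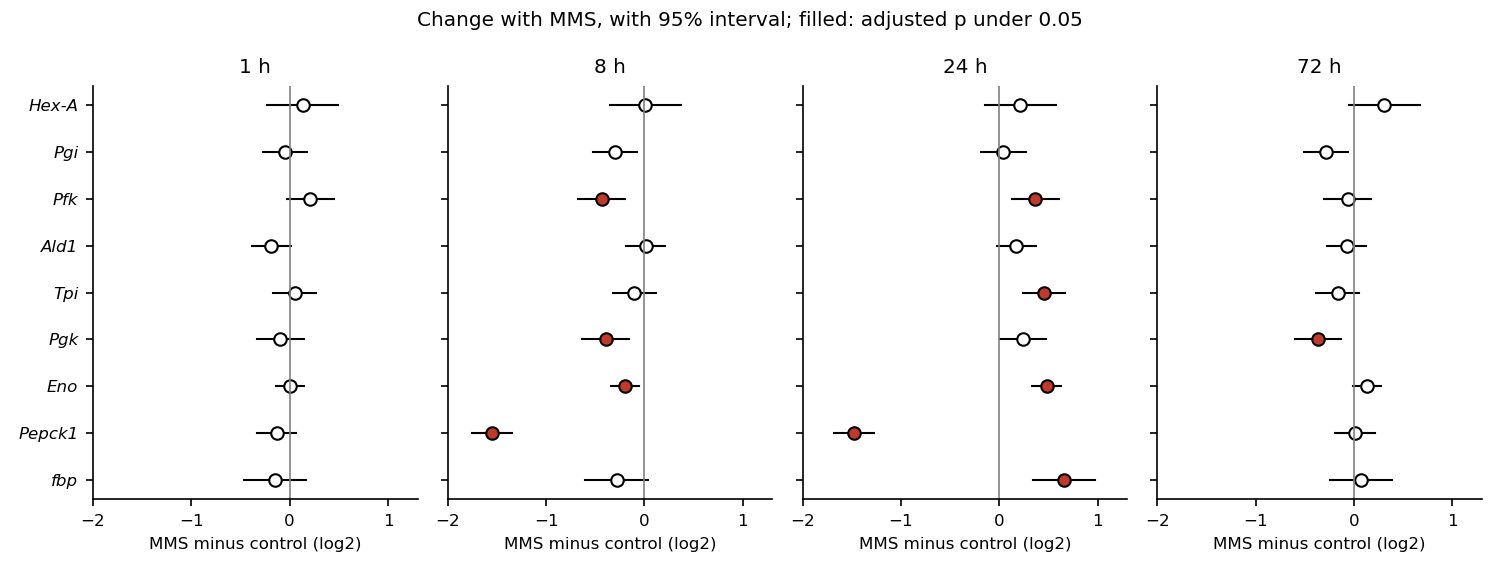
Change of each enzyme, MMS minus control on the log2 scale (horizontal axis), at 1, 8, 24 and 72 h; points are fitted changes from 4 arrays each, bars are 95% intervals, and filled points have an adjusted p under 0.05. Pepck1 stands at -1.55 at 8 h and -1.48 at 24 h, and Eno, Tpi, fbp and Pfk lie to the right of 0 at 24 h.

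The MMS effect differed between 8 and 24 h for 5 of the 9 enzymes, all towards higher, while 4.96% of all genes were called in that direction and 3.02% in the other. The change of the effect was 0.94 ± 0.22 for fbp (adjusted p = 0.00468, limma interaction), 0.80 ± 0.17 for Pfk (adjusted p = 0.00157) and 0.68 ± 0.10 for Eno (adjusted p = 1.89e-05). It was 0.64 ± 0.16 for Pgk (adjusted p = 0.0115) and 0.56 ± 0.15 for Tpi (adjusted p = 0.0161), and the call of Tpi was lost without control replicate 1 of 8 h (0.44, adjusted p = 0.0583). Pfk and Eno were thus called lower at 8 h and higher at 24 h. The 8 h arrays enter this comparison on both sides, treated and untreated.

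At 72 h 0 of the 9 enzymes were higher in MMS than in control cultures and 1, Pgk, was lower, at a time when 17.0% of all genes were called higher and 12.5% lower. Centring each array on its median changed the split over all genes to 2228 higher and 1023 lower, in place of 2039 and 1492, and the enzymes' counts stayed at 0 and 1. Pgk read 11.67, 11.50, 11.57 and 11.59 in MMS cultures, against 11.97, 11.87, 11.89 and 12.09 in control, with no overlap. It fell by 0.37 ± 0.12 (SE, n = 4 each, adjusted p = 0.0145, limma), and without control replicate 4 the adjusted p was 0.0537 (change -0.33). Pgi had a change of -0.28 ± 0.11 (adjusted p = 0.0519) and Hex-A one of 0.30 ± 0.18 (adjusted p = 0.203). The remaining enzymes lay between -0.17 for Tpi and 0.13 for Eno, and the median of the 9 was -0.06, against -0.05 over all genes. The arrays of Tpi did not overlap either, and it was not called (adjusted p = 0.244, limma). The 3' over 5' excess averaged 0.71 in MMS and 0.58 in control cultures of 72 h, with no overlap (two-sided exact permutation test, p = 0.0286, the smallest that 4 against 4 arrays allow, adjusted over the 4 times 0.114), and its part in the change of Pgk was not tested. Nor was that of the hemocyte markers, of which 3 of 13 were called higher and 5 lower at 72 h, 1 and 4 of them at least 2-fold. Their summed linear signal was 30438 to 40553 in MMS and 30960 to 33881 in control cultures. The part of the neuronal markers was not tested either: 2 of 5 (elav and brp) were higher and 0 lower, with 332 to 399 in MMS and 170 to 202 in control cultures.

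Between 24 and 72 h the MMS effect moved up for 1 enzyme, Pepck1, and down for 3, while 9.13% of all genes were called up and 4.53% down. The 3 were Tpi (-0.62 ± 0.15, adjusted p = 0.00342, limma interaction), Pgk (-0.61 ± 0.16, adjusted p = 0.00883) and Eno (-0.35 ± 0.10, adjusted p = 0.0157). fbp moved by -0.58 ± 0.22 (adjusted p = 0.0756) and Pfk by -0.43 ± 0.17 (adjusted p = 0.0898), neither called. Eno was not called after centring the arrays (adjusted p = 0.0959), and without control replicate 4 of 72 h 5 enzymes were called down. Between 8 and 72 h the effect moved up for 2 of the 9, Pepck1 as above and Eno (0.33 ± 0.10, adjusted p = 0.0189), and down for 0, against 13.3% and 6.83% of all genes (1789 up and 548 down after centring the arrays, in place of 1588 and 818). The call of Eno there was lost without control replicate 1 of 8 h (0.27, adjusted p = 0.0588).

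In untreated cultures the change over 72 h was larger in size than any MMS change for each enzyme except Pepck1. At 72 h all 9 were higher in control cultures than at 0 h, while 16.7% of all genes were called higher and 19.8% lower. For 7 of the 9 the rise was at least 2-fold, as it was for 4.84% of all genes, and for all 9 each array of 72 h lay above each array of 0 h, as for 14.4% of all genes. The largest rise was that of Pfk, which read 11.89, 12.01, 11.66 and 11.38 at 72 h, against 9.06, 9.04, 9.25 and 8.77 at 0 h. That was 6.51-fold (2.70 ± 0.12, SE, n = 4 each, adjusted p = 6.62e-19, limma). Hex-A, the entry enzyme, read 11.98, 11.97, 11.51 and 11.24 at 72 h, against 9.26, 9.66, 9.63 and 9.02 at 0 h, which was 4.86-fold (2.28 ± 0.18). Of the hemocyte markers 5 of 13 were higher and 3 lower in the same comparison, and their part in it was not tested.

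The other rises in control cultures at 72 h against 0 h were 1.81 ± 0.11 for Tpi, 1.81 ± 0.16 for fbp, 1.49 ± 0.11 for Pgi, 1.19 ± 0.10 for Pepck1, 1.06 ± 0.12 for Pgk, 0.99 ± 0.07 for Eno and 0.79 ± 0.10 for Ald1, and the largest adjusted p of the 9 was 2.91e-08. Ald1 was the enzyme with a second probe set of its own, and that one rose by 1.89 in the same comparison. The 2 probe sets of Ald1 thus disagreed on the size of the late rise but gave like values for MMS against control at 24 h (0.18 for the second, 0.17 for the first). The Ald1, Eno, Tpi, Pgi and fbp probe sets carry the ending (s_at) that the platform gives to sets whose probes may match transcripts of other genes as well, although the annotation lists 1 gene for each. Those of Hex-A, Pfk and Pepck1 carry the ending (a_at) for sets that match several transcripts of the same gene.

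The rise in control cultures did not run evenly. At 1 h against 0 h 0 enzymes were called in either direction, with 0.200% of all genes called higher and 0.0668% lower. At 8 h against 0 h 6 enzymes were higher and 0 lower (16.8% and 16.4% of all genes), led by Pfk (1.72 ± 0.12) and fbp (1.63 ± 0.16), with Tpi at 1.12, Ald1 at 1.08, Eno at 0.82 and Pgi at 0.43. At 24 h against 0 h 6 enzymes were again higher and 0 lower (4.82% and 10.8% of all genes): Pfk (1.53 ± 0.12), Tpi (1.20 ± 0.11), Pgi (0.65 ± 0.11), Eno (0.52 ± 0.07), Pgk (0.44 ± 0.12) and Ald1 (0.33 ± 0.10). The call of Ald1 was lost without control replicate 2 of 0 h (adjusted p = 0.0878) or of 24 h (0.0857), and that of Pgk without control replicate 3 of 0 h (0.0502). The 8 h arrays differ from those of 0 h in the RNA quality measures given above, and for the values at 8 h against 0 h this cannot be told apart from time. Cell-type markers moved in that comparison too: 1 of 13 hemocyte markers was higher and 7 lower (summed linear signal 24468 to 26080 at 8 h, against 29239 to 40898 at 0 h), and 3 of 5 neuronal markers were higher and 0 lower. Of 3 germline markers 1 was higher and 0 lower: bam averaged 9.88 at 8 h, against 6.96 at 0 h, and the other 2 averaged under 5 at both times. Their part in the enzymes' values was not tested.

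The 2 gene products of the bypass steps and Hex-A took other courses. In control cultures fbp read 8.27, 7.79, 7.25 and 8.25 at 0 h, 9.63, 9.52, 9.54 and 9.38 at 8 h, 7.25, 7.51, 7.67 and 7.73 at 24 h, and 9.64, 9.45, 9.76 and 9.92 at 72 h. It was thus high at 8 and 72 h and low at 0 and 24 h, with MMS cultures taking the same course (means of 7.89, 9.23, 8.20 and 9.77 at 1, 8, 24 and 72 h). The Ald1 probe set used here was also highest at 8 h in both MMS (12.38) and control cultures (12.37). The second Ald1 probe set was not: in control cultures it stood 0.83 above 0 h at 8 h and 1.89 above it at 72 h. Its MMS minus control differences at these 2 times were 0.04 and -0.13. The part of the RNA quality of the 8 h arrays, given above, was not tested. Hex-A stayed between 9.26 and 9.81 in the group means of 0 to 24 h and rose only after that, and Pepck1 in control cultures was at 10.18 to 10.46 until 24 h and 11.42 at 72 h.

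From 24 to 72 h all 9 enzymes were called higher in control cultures and 5 in MMS cultures, with 0 called lower in either. Of all genes 15.0% were called higher and 14.9% lower in control cultures in this interval, and 22.3% higher and 19.9% lower in MMS cultures (2919 higher and 1703 lower after centring the arrays, in place of 2676 and 2385). In MMS cultures the rises were Pepck1 (2.46 ± 0.10), Hex-A (2.16 ± 0.18), fbp (1.57 ± 0.16), Pfk (0.74 ± 0.12) and Pgi (0.51 ± 0.11). Pepck1 rose 5.48-fold there, against 1.96-fold in control cultures (0.97 ± 0.10). Tpi, Pgk and Eno, at -0.02 ± 0.11, 0.01 ± 0.12 and 0.13 ± 0.07, were not called in MMS cultures, against 0.61 ± 0.11, 0.62 ± 0.12 and 0.48 ± 0.07 in control cultures, and the test of each difference is the interaction given above. Hex-A rose by 2.07 ± 0.18 in control cultures, and its interaction was 0.09 ± 0.25 (adjusted p = 0.873). Ald1 was not called in MMS cultures (0.22 ± 0.10, adjusted p = 0.0710, limma), against 0.46 ± 0.10 in control cultures. Its second probe set rose by 1.17 in MMS cultures and 1.48 in control cultures, so its absence from the 5 depends on the probe set. Over the same interval 10 of 13 hemocyte markers were higher and 1 lower in MMS cultures (median change 0.86), with a summed linear signal of 30438 to 40553 at 72 h, against 21962 to 24541 at 24 h. In control cultures 5 were higher and 2 lower (median 0.31), with 30960 to 33881 at 72 h, against 30047 to 35083 at 24 h, and the part of this was not tested.

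**Figure D3:**
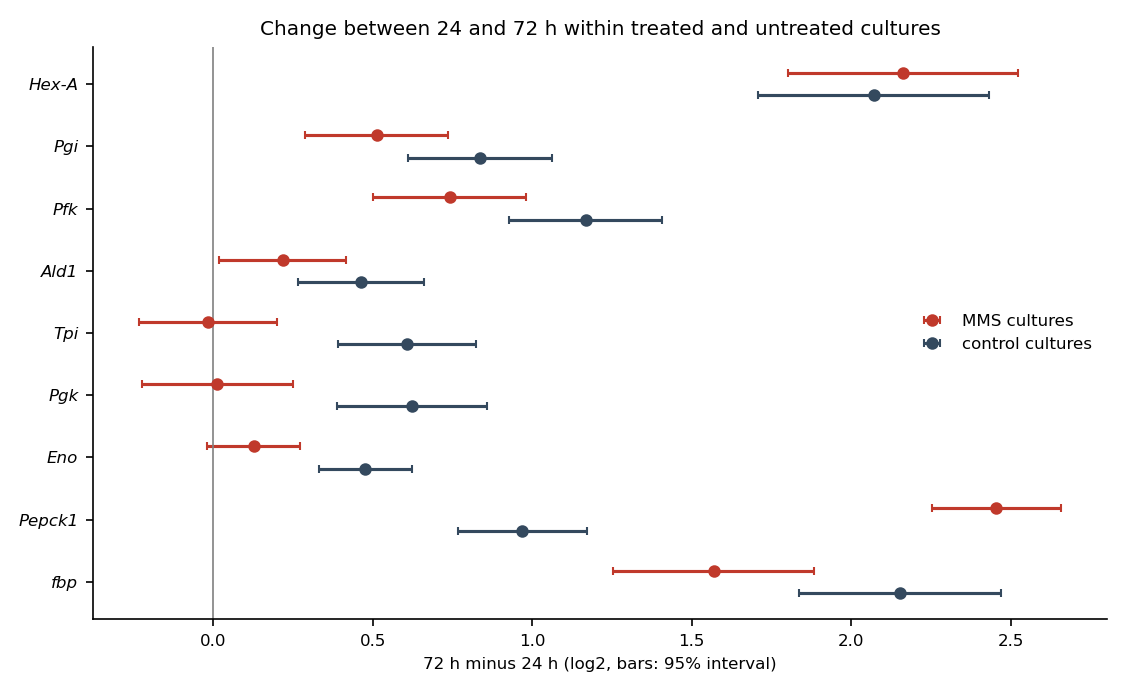
Change between 24 and 72 h on the log2 scale (horizontal axis) within MMS cultures (red, upper point of each pair) and control cultures (grey, lower point), from 4 arrays at each time; bars are 95% intervals. Pepck1 rose by 2.46 with MMS and 0.97 without, and Tpi, Pgk and Eno stood near 0 with MMS and at 0.48 to 0.62 without.

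In order of group means 6 of the 9 enzymes had the groups of 0 and 1 h at the bottom (all but Pgk, Pepck1 and fbp), 6 had both groups of 72 h at the top (all but Ald1, Tpi and Eno), and 3, Hex-A, Pgi and Pfk, had both. Ald1 is placed here by the probe set used, and in control cultures its second probe set stood higher at 72 h than at 8 h, as given above. For Tpi and Eno the 24 h MMS cultures ranked beside those of 72 h: Tpi averaged 13.19 with MMS at 24 h, 13.17 with MMS at 72 h and 13.34 in control cultures at 72 h, and Eno averaged 13.14, 13.27 and 13.14 in these groups, with neighbouring groups overlapping in each case. For Pgk the 2 late MMS groups, at 11.57 and 11.58, overlapped and lay below all control arrays of 72 h. The range of the 9 group means was 1.18 for Eno at the least and 2.84 for Pfk at the most, against a median of 0.61 over all genes.

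Across the 9 group means, which share arrays, times and the scale between arrays, Tpi correlated with Pfk at r = 0.98 and with Eno at r = 0.97, and Pfk with Eno at r = 0.97. Pepck1 correlated with Hex-A at 0.70, with Pgi at 0.61 and with Pgk at 0.51, and with the other 5 at 0.02 (Ald1) to 0.38 (fbp and Pfk). Among the 3729 genes whose group means ranged over at least 1 (log2), the closest to Pepck1 were CG11619 (r = 0.95), Oatp74D, an organic anion transporter (0.95), and Rm62, an RNA helicase (0.94). The closest to Eno were GstE11, a glutathione S-transferase (0.98), its fellow glycolytic gene Tpi (0.97) and BI-1, the fly relative of Bax inhibitor (0.97). The closest to fbp were loco (0.99), a regulator of G-protein signalling, CenB1A (0.98) and Pak, a protein kinase (0.98). These are descriptions over 9 points, without a test.

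Of 13 other glycolytic genes measured, isoforms and regulators not among the 10, 8 averaged under 5 in every group, near the floor of the arrays. Of all genes 8.85% were called higher and 11.5% lower at 8 h, 10.2% and 10.0% at 24 h, and 17.0% and 12.5% at 72 h. Among the 5 brighter glycolytic genes 0 were called at 8 h, and 0 were lower at 24 or 72 h. Of the 5, 3 were higher at 24 h and 2 at 72 h. At 24 h these were Gapdh1, glyceraldehyde-3-phosphate dehydrogenase, which read 13.16, 13.08, 13.17 and 13.11 in MMS cultures, against 12.61, 12.73, 12.81 and 12.70 in control (0.42 ± 0.08, adjusted p = 0.000111, limma), the phosphoglycerate mutase Pglym78 (0.43 ± 0.07, adjusted p = 1.73e-05) and CG9961 (0.57 ± 0.10, adjusted p = 7.78e-05). Both Gapdh1 and Pglym78 act between Tpi and Eno in the pathway, and at 72 h they stood at -0.01 and 0.01. Pfrx, which makes and breaks the fructose-2,6-bisphosphate that stimulates phosphofructokinase, was higher at 72 h (0.60 ± 0.15, adjusted p = 0.00282). Among the 8 dim ones CG7069 was called higher at 8 h, at 4.29 in MMS and 3.75 in control cultures, and at 72 h, at 3.87 and 3.47 in these groups. Ald2 and Gapdh2 were not analysed here.

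**Figure D4:**
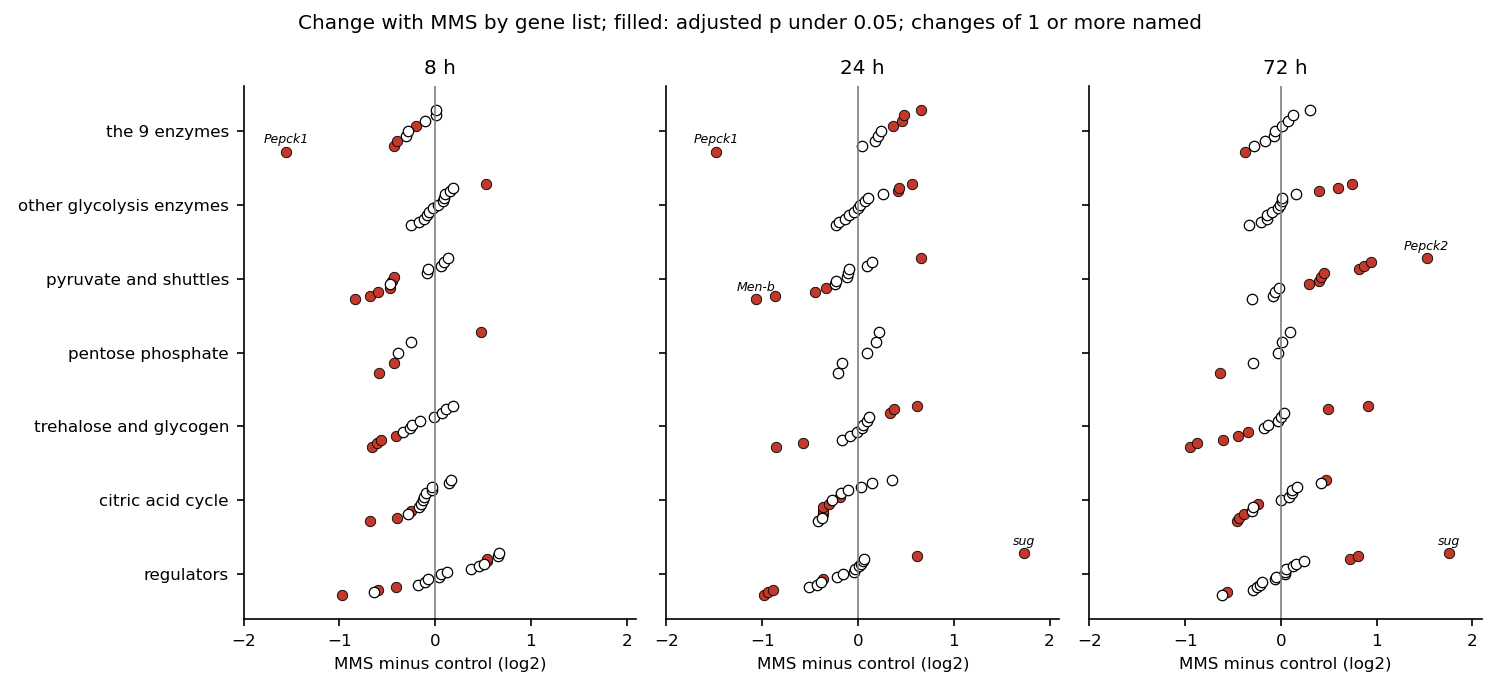
Change of single genes, MMS minus control on the log2 scale (horizontal axis), by gene list (rows) at 8, 24 and 72 h; filled points have an adjusted p under 0.05 and genes with a change of 1 or more are named. Within the list of pyruvate and shuttle genes, 6 of 12 are lower at 8 h and 8 of 12 higher at 72 h, against 11.5% and 17.0% of all genes.

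The genes that handle pyruvate and the exchange of reducing power with mitochondria were mostly lower where called at 8 and 24 h and higher at 72 h. Lactate dehydrogenase (Ldh) and the pyruvate dehydrogenase genes Pdha and Pdhb were not analysed here. Of 12 measured, 0 were higher and 6 lower in MMS cultures at 8 h (8.85% and 11.5% of all genes), 1 was higher and 4 lower at 24 h (10.2% and 10.0%), and 8 were higher and 0 lower at 72 h (17.0% and 12.5%). The split over all genes at 72 h was 2228 higher and 1023 lower after centring the arrays, in place of 2039 and 1492. The medians of the 12 were -0.44, -0.17 and 0.41, against -0.02, -0.02 and -0.05 over all genes. PCB, pyruvate carboxylase, makes the oxaloacetate that Pepck1 uses. At 24 h PCB read 8.67, 8.69, 8.18 and 8.31 in MMS cultures, against 9.69, 9.48, 9.02 and 9.14 in control, and at 72 h it read 10.32, 9.93, 10.26 and 10.61 with MMS, against 9.15, 9.42, 9.29 and 9.48 in control. Its change was -0.67 ± 0.15 at 8 h, -0.87 ± 0.15 at 24 h and 0.95 ± 0.15 at 72 h (adjusted p = 0.000918, 2.16e-05 and 4.69e-06, limma), so that it lay above control at 72 h.

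Pepck2, the paralogue of Pepck1, was dim, at 4.08 to 4.51 in the group means up to 24 h, and in MMS cultures of 72 h it read 5.54, 5.37, 6.06 and 5.68, against 4.18, 4.23, 3.96 and 4.18 in control cultures. Its change at 72 h was 1.52 ± 0.14 (adjusted p = 6.93e-11, limma). The malic enzymes Men and Men-b, which turn malate into pyruvate, were lower: Men changed by -0.84 ± 0.10 at 8 h (adjusted p = 3.56e-07) and -0.45 ± 0.10 at 24 h (adjusted p = 0.00131), and Men-b changed by -1.07 ± 0.18 at 24 h (adjusted p = 2.38e-05). Of the aspartate aminotransferases of the malate-aspartate shuttle, Got1 was higher at 24 h (0.66 ± 0.06, adjusted p = 3.71e-10) and 72 h (0.29 ± 0.06, adjusted p = 0.000442). Got2 was lower at 8 h (-0.45 ± 0.10, adjusted p = 0.00101), had a change of -0.11 ± 0.10 at 24 h (not called) and was higher at 72 h (0.82 ± 0.10, adjusted p = 5.23e-08). Pdp, the phosphatase that activates pyruvate dehydrogenase, was lower at 8 h (-0.60 ± 0.09, adjusted p = 1.28e-05).

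Among 12 genes of trehalose and glycogen, 0 were higher and 4 lower at 8 h (8.85% and 11.5% of all genes), 3 higher and 2 lower at 24 h (10.2% and 10.0%), and 2 higher and 5 lower at 72 h (17.0% and 12.5%). Of the 12, 4 averaged under 5 in every group. Glys, glycogen synthase, was lower with MMS at all 3 times (-0.65 ± 0.12, -0.86 ± 0.12 and -0.35 ± 0.12, adjusted p = 0.000176, 1.47e-06 and 0.0317, limma), and so was GAA1 (-0.57, -0.57 and -0.60). At 24 h Gyg, glycogenin, which primes glycogen, was higher (0.61 ± 0.19, adjusted p = 0.0167). AGBE, the branching enzyme, was lower at 8 h (-0.61 ± 0.12, adjusted p = 0.000236), higher at 24 h (0.33 ± 0.12, adjusted p = 0.0391) and lower at 72 h (-0.44 ± 0.12, adjusted p = 0.0037). Treh, trehalase, read 11.16, 11.16, 11.29 and 11.24 in MMS cultures at 72 h, against 10.32, 10.47, 10.29 and 10.13 in control (0.91 ± 0.14, adjusted p = 2.23e-06). Pgm1, phosphoglucomutase, which joins glycogen to glycolysis, read 11.44, 11.45, 11.52 and 11.53 with MMS at 72 h, against 12.54, 12.62, 12.43 and 12.17 in control (-0.95 ± 0.13, adjusted p = 2.45e-07).

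Of 13 citric acid cycle genes, 0 were higher and 3 lower at 8 h (8.85% and 11.5% of all genes), 0 were higher and 5 lower at 24 h (10.2% and 10.0%), and 1 was higher and 4 lower at 72 h (17.0% and 12.5%). ScsbetaG, a succinate-CoA ligase subunit, had the largest change at 8 h, where it was lower (-0.68 ± 0.16, adjusted p = 0.00234), and it was the 1 gene higher at 72 h (0.47 ± 0.16, adjusted p = 0.0268). The isocitrate dehydrogenase subunit Idh3b was lower at 24 h (-0.36 ± 0.08, adjusted p = 0.00143, limma), as was the succinate-CoA ligase subunit Scsalpha1 (-0.36 ± 0.10, adjusted p = 0.00899). Of 5 pentose phosphate genes 1 was higher and 2 lower at 8 h, 0 were called at 24 h, and 0 were higher and 1 lower at 72 h, against the same shares of all genes. The dehydrogenases Zw and Pgd and the transketolase Tkt were not analysed here. Taldo, transaldolase, was lower at 8 h (-0.43 ± 0.12, adjusted p = 0.00651), and Rpe, ribulose phosphate epimerase, at 8 h (-0.58 ± 0.16) and 72 h (-0.64 ± 0.16, adjusted p = 0.00227).

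Among 17 regulators of sugar metabolism, 2 were higher and 3 lower at 8 h (8.85% and 11.5% of all genes), 2 were higher and 4 lower at 24 h (10.2% and 10.0%), and 3 were higher and 1 lower at 72 h (17.0% and 12.5%). The transcription factor sug (sugarbabe), known in flies as a sugar-responsive gene, read 8.42, 8.51, 8.59 and 8.46 in MMS cultures at 24 h, against 6.73, 6.89, 6.71 and 6.72 in control. It was higher at all 3 times, by 0.55 ± 0.14, 1.73 ± 0.14 and 1.76 ± 0.14 (adjusted p = 0.00353, 4.78e-12 and 2.79e-12, limma). Hnf4, a nuclear receptor that in flies controls lipid and glucose metabolism, read 7.79, 7.89, 7.34 and 7.42 with MMS at 24 h, against 8.78, 8.67, 8.26 and 8.51 in control. Its change was -0.97 ± 0.13 at 8 h and -0.94 ± 0.13 at 24 h (adjusted p = 7.18e-07 and 3.69e-07), and -0.29 ± 0.13 at 72 h (adjusted p = 0.0817). Hph, the prolyl hydroxylase that marks the hypoxia factor sima for decay, was lower at all 3 times (-0.60, -0.98 and -0.57), and Akt, a kinase of insulin signalling, was higher at 24 h (0.61 ± 0.18, adjusted p = 0.00989) and 72 h (0.81 ± 0.18).

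**Figure D5:**
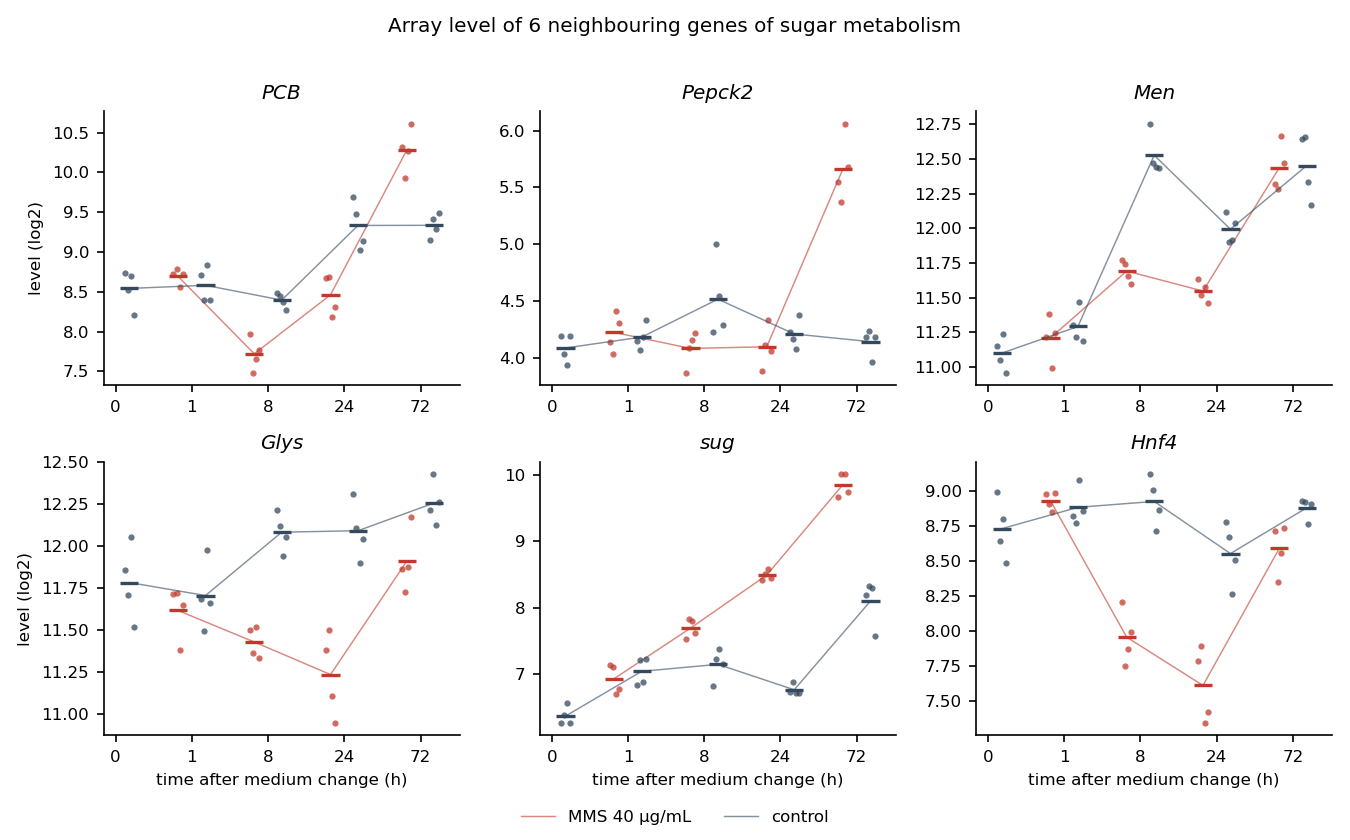
Level (log2, vertical axis) of 6 genes next to the enzymes in sugar metabolism against time in hours, with single arrays as points and means of 4 as bars, red for MMS and grey for control. The 6 were picked after their values were seen. PCB and Hnf4 lie below control at 8 and 24 h, as Pepck1 does, and sug lies above control from 8 h on.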

How the data were processed

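The authors deposited log2 values, 1 per probe set and array of the Affymetrix Drosophila Genome 2.0 platform, made with RMA (background correction, quantile normalization, probe summary) per the submitters' processing notes (version not given in the sources used here). There were 18952 probe sets, and log2 values ran between 2.67 and 14.74. Probe sets of a single gene (13646) were kept, named by the platform annotation and RefSeq's gene table (assembly Release 6 plus ISO1 MT, names only), and the brightest per gene was used (11981 genes, no filter). Quantile normalization hides changes of total RNA. Arrays carry no depth, and their number limits the precision.

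Groups and replicates were read from the labels. limma 3.58.1 in R 4.3.3 fitted a mean for each of the 9 groups over 36 arrays (27 residual degrees of freedom), took the place of the permutation analysis run by the array service, and was tested on simulated data. SE and 95% intervals, not adjusted for the number of genes, come from that fit. Comparisons share control arrays.

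Same-numbered arrays correlated in their deviations from group means at 0.36 to 0.53 for MMS against control at 24 h and at 0.22 to 0.28 for control at 72 h against 24 h, so a replicate block fitted to those groups alone was added after seeing the data; other comparisons showed no such pairing. Alternatives were the probe set rule, the scaling, a filter on genes with all group means under 5, the arrays fitted, the block, the variance trend and leaving out arrays.

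The members, the gene lists and the rule for named genes were chosen with earlier results of these data known. All members are named. Of the other lists, those with the smallest adjusted p at 24 h (up to 4) and at 8 and 72 h (up to 2 each) were eligible, together with the 3 genes closest to Pepck1, Eno and fbp. No sequences or genome positions were used here.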

Additional observations from a re-analysis of the deposited data

Results flagged for a closer look

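Of the 81 sets of 4 arrays, 1 for each enzyme and group, 1 had an array far from the other 3, and chance alone gives such a set about once in 20. It was Pepck1 in control cultures at 8 h, where replicate 4 read 10.52 and the other 3 read 10.40 to 10.41. The array lies on the far side from the MMS cultures, which read 8.74 to 9.07.

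The MMS effect differed between times, by limma's interaction test, for 6 of the 9 enzymes. From 8 to 24 h it moved by 0.80 for Pfk, 0.56 for Tpi, 0.64 for Pgk, 0.68 for Eno and 0.94 for fbp on the log2 scale. From 24 to 72 h it moved by -0.62 for Tpi, -0.61 for Pgk, -0.35 for Eno and 1.49 for Pepck1. From 8 to 72 h it moved by 0.33 for Eno and 1.56 for Pepck1.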

How the results depend on the processing

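For the changes of enzymes that were called, 957 values over the alternatives kept their direction and stayed past the threshold, 24 kept only their direction and 0 reversed. Changes not called were not counted here. The block, the variance trend, the filter and the fits to fewer groups leave the size of a change as it is, so they could not reverse one. The probe set rule altered the values of Ald1 only. Of the counts of enzymes called, 451 stayed within 1.5 times and 9 did not, and those that stayed include counts of 0 against 0, as at 1 h. The count lower with MMS at 72 h was 2, in place of 1, with only genes of a group mean of 5 or more, with the replicate block and with a variance trend. The count whose MMS effect moved up from 8 to 72 h was 1, in place of 2, with only the groups compared. Leaving out 1 array gave 1 to 5 enzymes lower with MMS at 8 h, 1 (without control replicate 1 of 8 h) to 3 with an effect moving up from 8 to 72 h, 1 to 2 lower with MMS at 72 h (2 without MMS replicate 3), 3 to 5 with an effect moving down from 24 to 72 h (5 without control replicate 4 of 72 h), and 0 to 1 lower in control cultures at 24 h against 0 h (1 without control replicate 3 of 0 h). The cause was not tested. The call of Eno at 8 h was lost in several alternatives, with an adjusted p of 0.0657 after centring the arrays, 0.0587 with the replicate block and 0.155 with only the groups compared. With only the groups compared, Ald1 and Pgk were not called in control cultures at 24 h against 0 h (adjusted p = 0.111 and 0.0989).

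The replicate block on all 36 arrays moved no count over all genes by 1.5 times; in the comparisons without pairing, at most 2 of 4 arrays correlated best with their own number. Over all genes, those called in control cultures at 24 h against 0 h numbered 355 higher and 849 lower with only the groups compared, in place of 578 and 1299. The genes whose MMS effect moved down from 8 to 24 h numbered 544 with only the groups compared and 220 to 235 without control replicate 1 of 8 h, MMS replicate 4 of 8 h or MMS replicate 4 of 24 h, in place of 362. In control cultures at 1 h against 0 h the 24 genes higher and 8 lower became 2 and 0 with only the groups compared, 29 and 5 after centring, and as few as 10 higher without 1 array and 1 lower without another.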

Other observations

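Affymetrix's own GAPDH control probe sets, which were not among the genes tested, read 1 glycolytic enzyme on the same arrays. The 3' and 5' sets also enter the mean 3' over 5' excess given above, in which the 8 h arrays stood apart. The probe set at the middle of the transcript averaged 13.34 in MMS cultures and 13.48 in control cultures at 8 h, with no overlap (two-sided exact permutation test, p = 0.0286, the smallest that 4 against 4 arrays allow). At 24 h it averaged 13.76 in MMS cultures and 13.59 in control cultures (exact permutation p = 0.0571), and at 72 h 13.77 in MMS cultures and 13.78 in control cultures. The 3' and 5' sets differed in the same directions at 8 and 24 h. For the 3' set the exact permutation p was 0.114 at both times, and for the 5' set it was 0.0286 and 0.0571. At 72 h the 5' set averaged 13.04 in MMS cultures and 13.20 in control cultures (exact permutation p = 0.143). Over the 12 such tests made, of 3 probe sets at 4 times, the smallest adjusted p was 0.171.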
